A study of Mus musculus with 13 samples.

Results

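The genes described here are 10 imprinted growth genes of mouse muscle, *H19*, *Igf2*, *Meg3*, *Rian*, *Mirg*, *Dlk1*, *Peg3*, *Cdkn1c*, *Plagl1* and *Grb10*, among the 17924 genes with deposited values. They were matched by symbol, by way of the Ensembl identifiers. All 10 were found and all 10 passed the filter on low values, which asked for 3 or more libraries with a normalized count of 10 or more and was passed by 17069 genes. Normalized counts are read counts per gene divided by 1 size factor per library.

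An imprinted gene is transcribed mainly from the copy inherited from 1 parent, because the copies were marked by DNA methylation in egg or sperm, and imprinted genes lie in clusters that share a control region. Many of them set growth before birth, and their RNA declines in most tissues soon after it. *Igf2*, *Dlk1*, *Peg3* and *Plagl1* are transcribed mainly from the paternal copy, whereas *H19*, *Meg3*, *Rian*, *Mirg*, *Cdkn1c* and, outside the brain, *Grb10* are transcribed mainly from the maternal copy. In muscle, *H19* and *Igf2* RNA is abundant while fibres form, and the microRNAs cut from the *Meg3* to *Mirg* transcripts belong to a large microRNA cluster. Counts per gene do not tell the parental copies apart, so imprinting itself was not measured.

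The RNA came from whole muscles of *mdm* mice (muscular dystrophy with myositis), which carry a small deletion in the titin gene *Ttn* and come from a colony of the strain B6C3Fe a/a-Ttn mdm/J. The mice were 29 to 42 days old. Extensor digitorum longus (EDL) and psoas gave 5 libraries each, and soleus gave 3, which makes 13 in all. EDL came from mice of 38 to 42 days, as did psoas except for replicate 1, from a mouse of 29 days. Soleus replicates 1 to 3 came from mice of 33, 36 and 38 days. Age thus differed between libraries and muscles, and its part in the values was not tested. According to the study's supplement, no psoas library had a higher RNA integrity number than any EDL library. The part of RNA integrity was not tested either. All groups compared share the *mdm* deletion, and no wild-type library was analysed here. No treatment is named for them, and according to the methods the mice had been euthanized for other studies. The labels also carry 5 codes (T1, T3, T4, T5 and T6) without explanation and give the sex for some libraries, and nothing in them says which libraries came from 1 mouse. According to the methods, replicates were biological and fewer mice than libraries were used, so some mice gave more than 1 muscle.

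Total counts ran from 9114176 to 48835209 per library, and slow fibre markers fitted the labels, with a summed normalized count of 264607 to 320242 in soleus and at most 41829 in any other library. EDL replicate 1 stood apart in the nuclear RNAs *Malat1* (116581 against 6086 to 17416 in the other EDL libraries) and *Neat1* (8666 against 861.6 to 2968), and psoas replicate 1 had the highest values of both among the psoas libraries (56905 and 4470). The study's supplement also gives EDL replicate 1 a larger share of multiply aligned reads than EDL replicates 2 and 3. Every count here comes from whole muscle, in which fewer cells of a type and less RNA per cell cannot be told apart.

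Per kilobase of exon, *H19* was the most abundant member in each muscle. Its mean normalized count per kilobase was 24180 in EDL, 17220 in psoas and 15380 in soleus, and its lowest library in each muscle exceeded the highest library of every other member. *Cdkn1c* came next in EDL at 784.3, followed by *Rian* (339.6), *Igf2* (335.5), *Peg3* (334.4) and *Grb10* (305.1). These last 4 overlapped between libraries, and the lowest *Cdkn1c* library (429.6) lay below the highest of *Igf2* (544.3) and of *Peg3* (491.6). *Mirg* (67.99), *Meg3* (25.44) and *Plagl1* (8.609) were lower and overlapped in that order, and *Dlk1* was last at 1.194. In psoas, *Cdkn1c* (1278) and *Igf2* (1202) overlapped in the next places, ahead of *Peg3* and *Grb10* by the mean, and *Dlk1* was still last at 18.98. The psoas libraries of *Dlk1* (12.14 to 24.38) overlapped those of *Mirg* (19.42 to 26.29), *Meg3* (17.14 to 67.94) and *Plagl1* (14.06 to 58.87). In soleus, *Igf2* (604.5) and *Cdkn1c* (592.7) overlapped in the same places, and *Dlk1* was last at 1.749. The highest soleus library of *Dlk1* (3.039) lay above the lowest of *Mirg* (2.84).

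**Figure D1:**
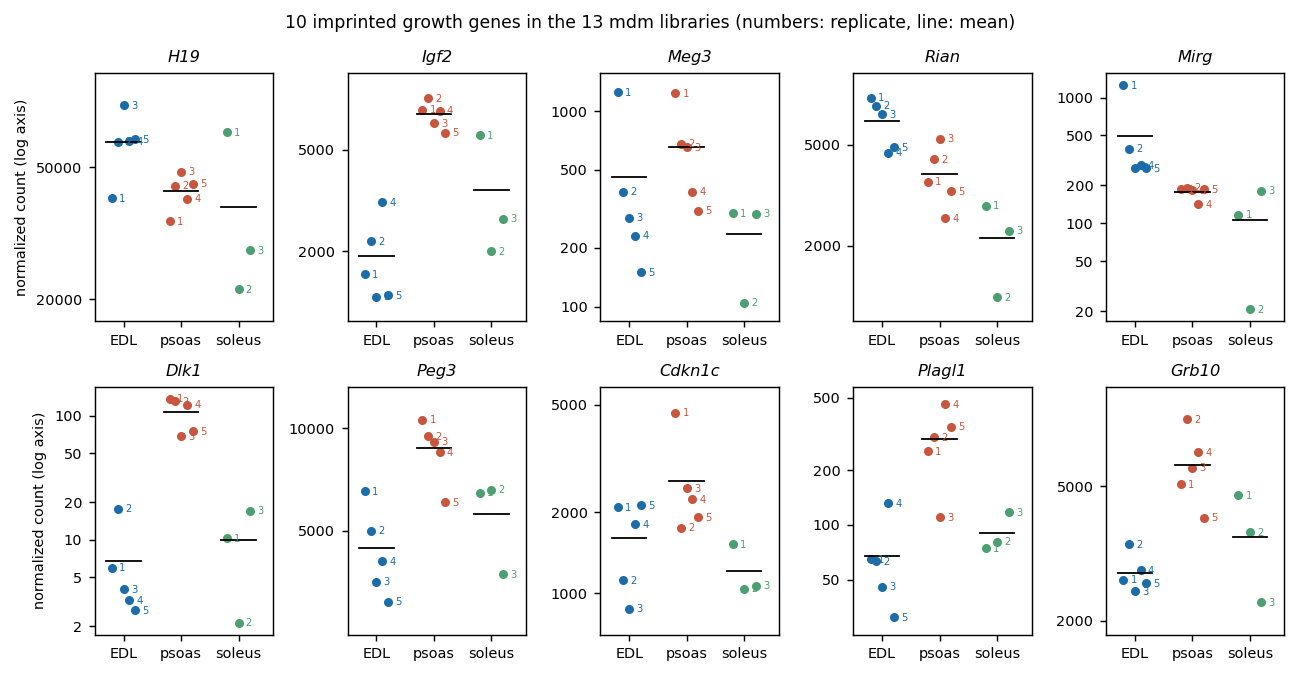
Normalized count (log axis) of each of the 10 genes in the 13 *mdm* libraries, by muscle, with the replicate number beside each point and a line at the mean of the muscle. *Igf2*, *Dlk1* and *Grb10* had every psoas library above every EDL library, and *Mirg* had every psoas library below every EDL library.

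The first comparison asked how *mdm* psoas differed from *mdm* EDL, both known as muscles of mostly fast fibres. *Dlk1*, *Plagl1*, *Igf2* and *Grb10* were higher in psoas, by 14.4-fold, 4.35-fold, 3.59-fold and 2.085-fold. No member was called lower in psoas. A call required an adjusted p under 0.01 in edgeR's quasi-likelihood test (Benjamini-Hochberg, over all 17069 genes) together with a log2 fold change beyond 1 in either direction. By this rule 4 of the 10 members were called higher, beside 2.43% of all genes tested, and 0 lower, beside 2.5% of all genes. The members' median log2 fold change was 0.84, and that of all genes 0.02. The members were chosen with earlier results of these data known, so differences of the set from all genes, here and below, are a description. DESeq2 and limma also called 4 members higher and 0 lower, where they called 1586 and 989 of all genes and edgeR 841. At an unadjusted p under 0.05 by edgeR, 2 members (*Rian* and *Mirg*) were lower, beside 16.7% of all genes. The number of calls depended on the libraries included. It fell to 2 without EDL replicate 3 and to 1, *Dlk1*, without the number 1 libraries of both muscles. All genes called fell in the same refits, from 841 to 317 and to 343. Of the paternally expressed members, 3 of 4 were called higher, and of the maternally expressed members 1 of 6.

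**Figure D2:**
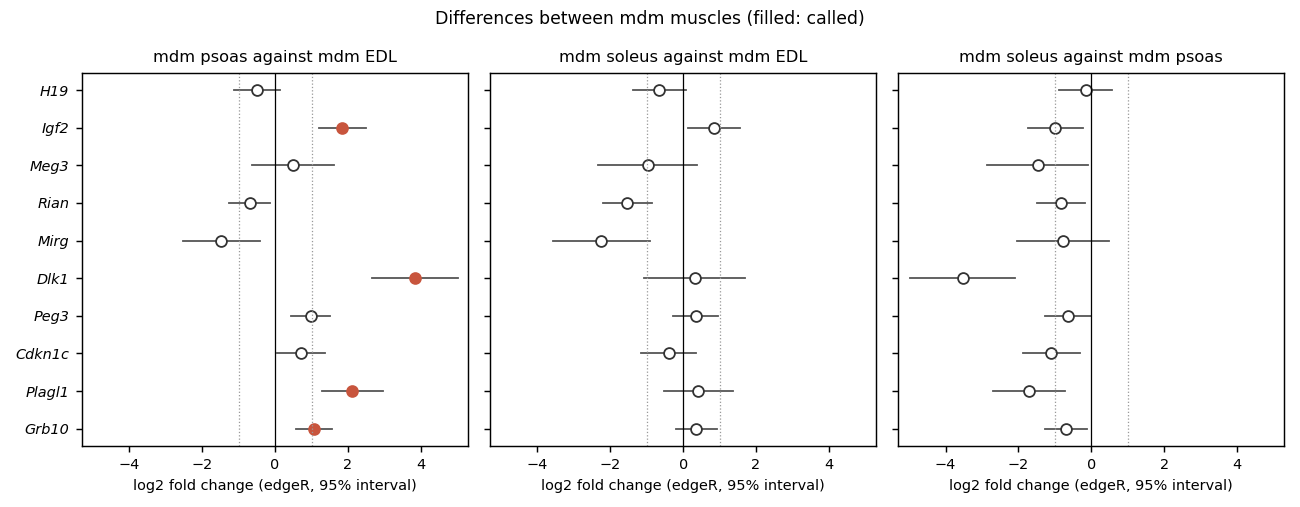
Log2 fold change of each of the 10 genes between *mdm* muscles, with its 95% interval from edgeR's quasi-likelihood fit of the 13 libraries. Filled points passed the call rule and dotted lines mark a log2 fold change of 1 in either direction. The 4 filled points, *Igf2*, *Dlk1*, *Plagl1* and *Grb10*, are all in psoas against EDL.

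*H19* and *Igf2* are neighbours on the reverse strand of chromosome 7 (build GRCm38), *H19* (ENSMUSG00000000031) at chr7:142575529-142578143 and *Igf2* (ENSMUSG00000048583) at chr7:142650766-142666816, with 72622 bases between them. *Igf2* encodes insulin-like growth factor 2, a fetal growth factor, and *H19* is a long non-coding RNA with enhancers in common with *Igf2*. Each harbours a microRNA hairpin. The mature microRNAs are shown because the gene counts are the only readout of their host RNAs here, and the microRNAs themselves were not measured. Sequences are those of RefSeq on GRCm38.p6, 5′ to 3′, with the seed (bases 2 to 8) in capitals, the first pair from *H19* and the second from *Igf2*.
miR-675-5p: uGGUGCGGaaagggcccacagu
miR-675-3p: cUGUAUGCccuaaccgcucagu
miR-483-5p: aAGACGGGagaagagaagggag
miR-483-3p: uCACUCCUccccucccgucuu

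Normalized counts of *Igf2* were 1629, 2186, 1326, 3115 and 1346 in EDL replicates 1 to 5. In psoas replicates 1 to 5 they were 7163, 7967, 6354, 7095 and 5821, and in soleus replicates 1 to 3 they were 5696, 2004 and 2679. The lowest psoas library thus had more *Igf2* RNA than the highest EDL library, and soleus replicate 1 lay close to psoas while the others lay within the range of EDL. *Igf2* was one of 3 members with every psoas library above every EDL library, beside 6.48% of all genes. In psoas the level was higher by a log2 fold change of 1.84 ± 0.30 (SE), with an adjusted p of 0.00225 by edgeR's quasi-likelihood test. Without both number 1 libraries it was 1.77 with an adjusted p of 0.011, just outside the call rule. Within label codes T4, T5 and T6, the ones that hold EDL and psoas, it ran from 1.66 to 2.25. The antisense gene *Igf2os*, on the opposite strand, had a normalized count of at most 9.8 in EDL and at least 11.3 in psoas, and its log2 fold change of 1.52 did not pass the rule (edgeR, adjusted p = 0.0375). Whether reads of the opposite strand entered the *Igf2* counts is not given in the sources used here. A second gene on the same strand, *Gm49394*, shares 3596 exon bases with *Igf2*.

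*H19* had normalized counts of 40359, 59765, 76805, 59799 and 60647 in EDL replicates 1 to 5. They were 34456, 44021, 48494, 40214 and 44625 in psoas, and 63891, 21450 and 28165 in soleus. EDL and psoas overlapped only through EDL replicate 1. Psoas against EDL gave a log2 fold change of -0.49 ± 0.29, with an adjusted p of 0.254 by edgeR, and its 95% interval, from -1.115 to 0.13, lay below that of *Igf2*, from 1.19 to 2.49. Scaled by library totals alone, this fold change was 0.03. That scaling moved the median of all genes by 0.518, so relative to it *H19* was still below the other genes. The within-code values ran from -0.67 to -0.47.

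Set against each other within a library, the pair separated the muscles. There were 1.73 to 5.21 *Igf2* counts per 100 *H19* counts in EDL, 8.92 to 9.51 in soleus and 13 to 20.8 in psoas, so no library of one muscle reached the range of another. The means were 3.37 ± 1.41 (SD, n = 5), 9.26 ± 0.31 (n = 3) and 16.5 ± 3.38 (n = 5). Because both genes are counted in the same library, this ratio does not depend on the scaling. It was picked after its values were seen and is given without a test.

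**Figure D3:**
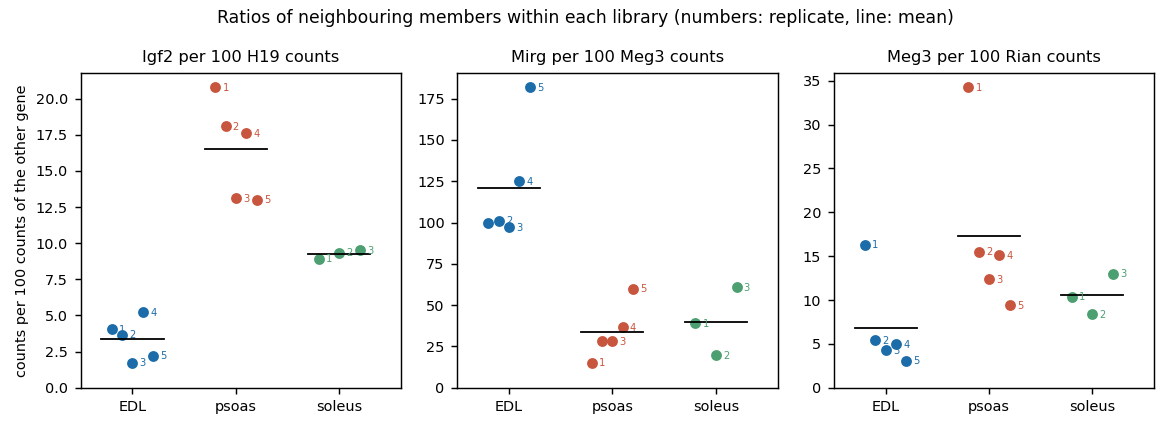
Counts of one gene per 100 counts of a neighbour in the same library, for *Igf2* against *H19*, *Mirg* against *Meg3* and *Meg3* against *Rian*, by muscle, with the replicate number beside each point and a line at the mean. *Igf2* per 100 *H19* ran from 1.73 to 5.21 in EDL, 8.92 to 9.51 in soleus and 13 to 20.8 in psoas, and *Mirg* per 100 *Meg3* was at least 97.2 in EDL and at most 60.9 in the other muscles.

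*Dlk1*, *Meg3*, *Rian* and *Mirg* lie in this order on the forward strand of chromosome 12, in the imprinted region that ends with *Dio3*. *Dlk1* (ENSMUSG00000040856, chr12:109452823-109463336) encodes a membrane protein related to Notch ligands that restrains adipocyte differentiation and acts on myoblasts. *Meg3* (ENSMUSG00000021268, chr12:109541001-109571726), *Rian* (ENSMUSG00000097451, chr12:109603940-109661716) and *Mirg* (ENSMUSG00000097391, chr12:109729764-109749460) are long non-coding RNAs. The stretch between *Dlk1* and *Meg3*, and the *Meg3* promoter, are methylated differently on the parental copies. *Rian* hosts 13 annotated small nucleolar RNAs and 4 microRNA genes, and *Mirg* hosts 14 microRNA genes on its own strand.

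The 250 bases before the RefSeq start of *Dlk1*, *Meg3* and *Rian* (GRCm38.p6, forward strand) are shown because these neighbours differed from each other in the comparisons below. Whether these windows have a part in those differences was not tested. CG dinucleotides, the sites of DNA methylation, are in capitals. The windows are chr12:109452573-109452822 for *Dlk1*, chr12:109540746-109540995 for *Meg3* and chr12:109603695-109603944 for *Rian*. The RefSeq start of *Mirg* lies 5217 bases inside the annotated gene, so its window is not shown.
Dlk1: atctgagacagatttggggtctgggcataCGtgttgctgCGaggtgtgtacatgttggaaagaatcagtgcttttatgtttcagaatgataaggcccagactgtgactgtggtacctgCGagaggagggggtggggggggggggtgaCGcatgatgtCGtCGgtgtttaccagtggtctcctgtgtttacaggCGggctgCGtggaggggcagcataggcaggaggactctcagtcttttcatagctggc
Meg3: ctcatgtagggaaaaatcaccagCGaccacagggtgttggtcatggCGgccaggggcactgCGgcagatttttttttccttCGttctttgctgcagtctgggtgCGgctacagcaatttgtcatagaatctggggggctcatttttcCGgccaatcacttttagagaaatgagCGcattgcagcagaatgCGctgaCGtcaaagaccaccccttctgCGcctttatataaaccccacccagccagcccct
Rian: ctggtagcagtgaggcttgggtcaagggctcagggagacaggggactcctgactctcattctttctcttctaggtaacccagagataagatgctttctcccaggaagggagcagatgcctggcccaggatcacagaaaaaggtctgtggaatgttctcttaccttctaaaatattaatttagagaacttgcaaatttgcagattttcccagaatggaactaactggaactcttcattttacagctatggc

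There were 8 CG dinucleotides in the *Dlk1* window, 10 in that of *Meg3* and 0 in that of *Rian*, where the median over all 32851 windows of this length was 6. As few as in *Rian* were found in 7.87% of all windows. Searched on both strands, TATAAA was present in the *Meg3* window and in 12.4% of all windows, and absent from the other 2. CAGCTG, an E-box sequence, was in none of the 3 and in 13% of all windows.

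*Dlk1* had normalized counts of 5.96, 17.9, 3.98, 3.27 and 2.71 in EDL replicates 1 to 5. In psoas they were 138, 131, 68.7, 123 and 75.4, and in soleus 10.3, 2.14 and 17.2. Psoas stood above both other muscles in every library, and soleus overlapped EDL. These values rest on 2 to 28 reads per EDL library, 75 to 296 per psoas library and 3 to 25 per soleus library, so the EDL level is known only roughly. Relative to EDL, psoas was at a log2 fold change of 3.84 ± 0.55, at percentile 99.8 of all genes, with an adjusted p of 0.00122 by edgeR's quasi-likelihood test. It was called in each of the 13 fits that left out a library (highest adjusted p by edgeR 0.00404) and without both number 1 libraries (0.00727), and ran from 2.75 to 4.47 within label codes.

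*Meg3* had normalized counts of 1248, 387, 285, 231 and 150 in EDL, 1229, 682, 655, 387 and 310 in psoas, and 300, 105 and 299 in soleus. The number 1 libraries of EDL and psoas were close to each other and far above the others of their muscle, and the remaining psoas libraries overlapped the EDL range. Between these muscles the log2 fold change was 0.50 ± 0.53 (edgeR, adjusted p = 0.548). Without EDL replicate 1 it was 1.30 (edgeR, adjusted p = 0.0492), without psoas replicate 1 it was 0.145 (edgeR, adjusted p = 0.884), and it was 0.33 and 0.28 without EDL replicates 4 and 5. Without both number 1 libraries it was 0.94 (edgeR, adjusted p = 0.115). The nuclear RNAs *Malat1* and *Neat1* were highest in those same libraries, and their part in the *Meg3* values was not tested.

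Counts of *Rian* were 7671, 7133, 6608, 4656 and 4889 in EDL, 3582, 4396, 5288, 2564 and 3285 in psoas, and 2876, 1255 and 2294 in soleus, after normalization. Every soleus library was below every EDL library, and psoas lay between them with overlap on both sides. In psoas against EDL the log2 fold change was -0.70 ± 0.26 (edgeR, adjusted p = 0.077).

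Farthest along the region lies *Mirg*. Its normalized counts were 1249, 392, 277, 289 and 273 in EDL, 187, 192, 184, 142 and 186 in psoas, and 117, 20.7 and 182 in soleus. The EDL libraries were all above the psoas and soleus libraries, EDL replicate 1 by far the most. *Mirg* was the only member with every psoas library below every EDL library, beside 6.56% of all genes. Its difference between psoas and EDL was -1.48 ± 0.50 on the log2 scale (edgeR, adjusted p = 0.0517), and -0.80 without EDL replicate 1 (edgeR, adjusted p = 0.166). Over the 13 libraries the log2 CPM values of *Mirg* had a Pearson r of 0.875 with those of *Rian* and 0.57 with those of *Meg3*. With the means of the muscles removed the order turned, at 0.69 with *Rian* and 0.785 with *Meg3*. All values of a library share its depth.

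There were 97.2 to 182 *Mirg* counts per 100 *Meg3* counts in EDL, 15.2 to 59.9 in psoas and 19.7 to 60.9 in soleus, so the EDL libraries, replicate 1 included, did not overlap the others. *Meg3* counts per 100 *Rian* counts ran from 3.07 to 5.43 in EDL replicates 2 to 5 and were 16.3 in replicate 1, against 9.44 to 34.3 in psoas and 8.37 to 13 in soleus. As for the other ratio, these were picked after their values were seen and have no test.

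Among the mature microRNAs that RefSeq places inside *Mirg* on the same strand, 26 from 14 hairpins, there were 25 different seeds. The only seed found more than once, GGUUGCC, is shared by the first pair of sequences below, and another microRNA of *Mirg*, with a seed of its own, is shown beside them. The microRNAs were not measured, and no statement on their levels can be drawn from the host RNA.
miR-453: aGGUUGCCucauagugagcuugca
miR-496a-5p: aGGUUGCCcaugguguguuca
miR-410-3p: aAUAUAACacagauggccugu

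From *Dlk1* to *Dio3*, 9 annotated genes had deposited values and all were tested. *Rtl1*, a retrotransposon-derived gene that lies antisense to part of the maternal transcripts, had normalized counts of 552.7 in EDL replicate 1 and 54.1 to 100.8 in the other EDL libraries, and of 202.3 to 518 in psoas. In psoas against EDL it was at 0.94 ± 0.59 on the log2 scale (edgeR, adjusted p = 0.283). Without EDL replicate 1 it was at 2.05 and passed the rule (edgeR, adjusted p = 0.00806), and without both number 1 libraries it was at 1.85 and did not (edgeR, adjusted p = 0.0176). *Dio3*, which encodes a thyroid hormone deiodinase, was at 34 or less in every library and at 0 in 1 of them. Of these 9 genes, *Dlk1* was the only one called in psoas against EDL by edgeR with all libraries, and *Rian* and *Mirg* were the only others with an unadjusted p under 0.05.

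**Figure D4:**
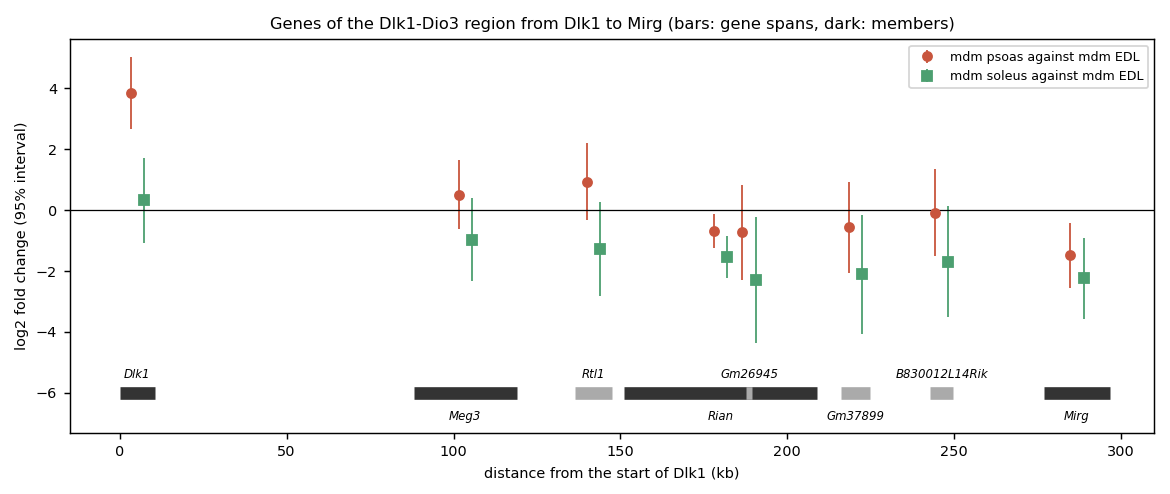
Log2 fold change with its 95% interval (edgeR) of the genes from *Dlk1* to *Mirg* in psoas against EDL and soleus against EDL, plotted by distance from the start of *Dlk1* in kilobases, with gene spans as bars at the bottom. *Dlk1* lies at 3.84 in psoas against EDL, while *Rian* and *Mirg* lie at -0.70 and -1.48.

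*Peg3* and *Plagl1* encode zinc finger transcription factors, and *Plagl1* is known to act within a network of imprinted genes. *Peg3* (ENSMUSG00000002265) lies on the reverse strand at chr7:6703892-6730431, and *Plagl1* (ENSMUSG00000019817) on the forward strand at chr10:13060504-13131694. *Plagl1* had normalized counts of 64.7, 63.2, 45.8, 131.8 and 31.1 in EDL replicates 1 to 5. They were 253.9, 302.3, 109.9, 460.3 and 346.5 in psoas and 74.5, 80.7 and 116.9 in soleus. EDL replicate 4 exceeded psoas replicate 3, and apart from these libraries the muscles did not overlap. Psoas was higher by a log2 fold change of 2.12 ± 0.39 (edgeR, adjusted p = 0.00382). The call was lost without EDL replicate 3 (2.02, edgeR adjusted p = 0.0128) and without both number 1 libraries (2.15, edgeR adjusted p = 0.0144). Within label codes the values ran from 1.23 to 2.62.

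*Peg3* had normalized counts of 6550, 5013, 3546, 4070 and 3099 in EDL, 10606, 9469, 9139, 8516 and 6079 in psoas, and 6475, 6600 and 3734 in soleus. Only EDL replicate 1 reached into the psoas range, through psoas replicate 5. Its psoas to EDL log2 fold change was 0.98 ± 0.25 with an adjusted p of 0.0168 by edgeR, outside both limits of the rule. With replicate numbers of EDL and psoas as pairs it was 1.01 (edgeR, adjusted p = 0.00596), and without EDL replicate 1 it was 1.15 (edgeR, adjusted p = 0.00918), and both pass the rule.

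*Cdkn1c* and *Grb10* restrain growth, the former as a cyclin-dependent kinase inhibitor (p57) and the latter as an adaptor that binds the insulin and IGF1 receptors. *Grb10* (ENSMUSG00000020176) lies on the reverse strand at chr11:11930508-12038683, and *Cdkn1c* (ENSMUSG00000037664) on the reverse strand at chr7:143458339-143461050. *Grb10* had normalized counts of 2643, 3370, 2445, 2824 and 2585 in EDL, 5060, 7888, 5670, 6306 and 4033 in psoas, and 4708, 3651 and 2271 in soleus. Psoas and EDL did not overlap, and soleus spanned the gap between them. In psoas the log2 fold change was 1.06 ± 0.23, with an adjusted p of 0.00831 by edgeR, close to both limits. Leaving out 1 library at a time lost the call 10 times in 13, at adjusted p-values by edgeR of up to 0.0249. Within label codes it ran from 0.91 to 1.20.

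*Cdkn1c* had normalized counts of 2080, 1120, 876, 1799 and 2121 in EDL, 4680, 1752, 2454, 2236 and 1910 in psoas, and 1520, 1039 and 1066 in soleus. Psoas replicate 1, from the mouse of 29 days, was far above every other library, and the remaining psoas libraries overlapped the EDL range. For psoas and EDL the log2 fold change was 0.71 ± 0.305 (edgeR, adjusted p = 0.119), and without psoas replicate 1 it was 0.39 (edgeR, adjusted p = 0.336). All soleus libraries were below all psoas libraries.

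The replicate numbers of EDL and psoas could be taken as pairs. With the number as a block, 1267 genes were called in psoas against EDL, against 841 without it. The 4 called members kept their calls, *Peg3* was added, and *Meg3*, *Rian* and *Mirg* remained outside the rule at adjusted p-values by edgeR of 0.017, 0.0214 and 0.0197.

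The other comparisons asked how the slow soleus differed from the other 2 *mdm* muscles. They share libraries with the first and with each other, and rest on 3 soleus libraries. By edgeR's quasi-likelihood test 0 members were called in soleus against EDL, beside 0.533% of all genes called higher and 0.445% called lower. At an unadjusted p under 0.05 by edgeR, 1 member (*Igf2*) was higher, beside 7.96% of all genes, and 2 (*Rian* and *Mirg*) were lower, beside 7.18%. DESeq2 called the latter pair lower, and limma called 1, *Rian*. Of all genes in this comparison DESeq2 called 633 and limma 217, where edgeR called 167. *Rian* and *Mirg* had every soleus library below every EDL library, as had 5.72% of all genes, and 0 members had every soleus library above, beside 5.33% of all genes. *Rian* had a log2 fold change of -1.53 ± 0.32 in soleus against EDL, with an adjusted p of 0.0175 by edgeR and 4.25e-05 by DESeq2. *Mirg* had one of -2.245 ± 0.63, with an adjusted p of 0.0666 by edgeR, and -1.56 without EDL replicate 1 (edgeR, adjusted p = 0.105). *Dlk1* was at 0.315 ± 0.65, with a 95% interval from -1.07 to 1.70, and ran from -0.16 without soleus replicate 3 to 1.11 without EDL replicate 2. The remaining members lay between -0.98 (*Meg3*) and 0.855 (*Igf2*), all outside the rule. Without EDL replicate 1 *Meg3* was at -0.18, and without soleus replicate 1 *Igf2* was at 0.30. Soleus replicate 2 had the lowest value of the 3 soleus libraries in 7 of the 10 members.

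In soleus against psoas, 0 members were called by edgeR, beside 0.0703% of all genes called higher and 0.00586% called lower. All 10 members had a negative log2 fold change, with a median of -0.91 where that of all genes was -0.03, and 8 of them were at an unadjusted p under 0.05 by edgeR, as were 6.48% of all genes in this direction. DESeq2 called 1 member lower, *Dlk1*, and limma 0, where they called 171 and 20 of all genes and edgeR 13. *Dlk1* had a log2 fold change of -3.53 ± 0.67 (edgeR, adjusted p = 0.0302). *Igf2*, *Meg3*, *Dlk1* and *Cdkn1c* had every soleus library below every psoas library, as had 5.19% of all genes, and 0 members had every soleus library above, beside 4.97% of all genes. *Plagl1* was at -1.70 ± 0.46 (edgeR, adjusted p = 0.134), *Meg3* at -1.48 ± 0.65 (edgeR, adjusted p = 0.364) and *H19*, with the smallest value, at -0.16 ± 0.34. *H19* was above 0, at 0.12 and 0.016, without soleus replicates 2 and 3, and at -0.76 without soleus replicate 1.

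Other genes of the pathways were read from fixed lists in psoas against EDL. Beside the calls in this and the lists below stand shares over all genes of 2.43% called higher and 2.5% called lower by edgeR. Of 56 other imprinted genes tested (66 listed), 6 were called higher and 0 lower by edgeR, with a median log2 fold change of 0.49. At an unadjusted p under 0.05 by edgeR 16 of them were higher, beside 16.6% of all genes, and 6 lower, beside 16.7%. DESeq2, which called more genes in all (1586, against 841 by edgeR), called 8 of them higher and 1 lower. The 3 with the largest fold changes were *Peg10* (2.18 ± 0.38, edgeR adjusted p = 0.003), *Zdbf2* (1.61 ± 0.24, edgeR adjusted p = 0.00156) and *Gatm* (1.585 ± 0.23, edgeR adjusted p = 0.00122). *Peg10* is a retrotransposon-derived gene needed in the placenta, and *Gatm* encodes the first enzyme of creatine synthesis and is imprinted in placenta.

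Receptors and signalling partners of *Igf2* and *Grb10* did not pass the rule. Of 20 tested (24 listed), 0 were called by edgeR, DESeq2 or limma in psoas against EDL, and 3 were higher at an unadjusted p under 0.05 by edgeR, beside 16.6% of all genes. *Igf1r*, the receptor through which IGF2 signals, had a log2 fold change of 0.97 ± 0.27 (edgeR, adjusted p = 0.0246), and *Igf2r*, an imprinted receptor that clears IGF2, one of 0.48 ± 0.25 (edgeR, adjusted p = 0.197). Among 15 Notch genes, set beside *Dlk1*, 1 was called higher, the Notch target *Heyl* (1.32 ± 0.28, edgeR adjusted p = 0.00778), and 0 lower. Among 16 cyclin-dependent kinase inhibitors and partners, set beside *Cdkn1c*, 1 was called higher, *Cdkn1a* (1.47 ± 0.28, edgeR adjusted p = 0.00429), and 0 lower. Of 10 genes that keep imprints, such as *Ctcf* and *Zfp57*, 0 were called by edgeR, while DESeq2 called 2 and limma 1. At an unadjusted p under 0.05 by edgeR 5 of them were higher, beside 16.6% of all genes, and 0 lower, beside 16.7%.

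Of 9 genes around *H19*, 0 were called higher and 3 lower in psoas against EDL, the fast troponins *Tnnt3* (-1.70 ± 0.275, edgeR adjusted p = 0.00203) and *Tnni2* (-1.67 ± 0.34, edgeR adjusted p = 0.00639) and the non-coding *Nctc1* (-1.68 ± 0.32, edgeR adjusted p = 0.00435), which is transcribed in muscle across an enhancer beyond *H19*. *Igf2* lies in the same neighbourhood and was called in the other direction.

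Markers of other cells and of fast fibres differed between psoas and EDL as well. Of 8 mesothelial markers, 7 were called higher in psoas and 0 lower, with a summed normalized count of 64 to 171 in EDL, 481 to 1547 in psoas and 124 to 277 in soleus, and the defining marker *Upk3b* was at 0 in 4 of the 5 EDL libraries. Over the 13 libraries the log2 of the summed mesothelial count plus 1 was set against the log2 CPM of each member. The Pearson r was 0.90 with *Dlk1*, 0.88 with *Igf2*, 0.82 with *Plagl1*, 0.82 with *Peg3* and 0.81 with *Grb10*. It was 0.63 with *Cdkn1c*, 0.58 with *Meg3*, -0.16 with *Mirg*, -0.25 with *Rian* and -0.38 with *H19*. These points share library and depth and fall into groups by muscle. Of 12 markers of immature fibres and satellite cells, 3 were called higher (*Mymk*, *Myod1* and *Chrng*) and 0 lower. At an unadjusted p under 0.05 by edgeR all 12 were higher, beside 16.6% of all genes. The summed normalized count of the 12 was 36576 to 69396 in EDL, 68323 to 146458 in psoas and 60320 to 182147 in soleus. Its log2, taken as above, had a Pearson r of 0.73 with *Peg3*, 0.67 with *Grb10* and 0.575 with *Igf2*. It was 0.39 with *Dlk1*, 0.37 with *Cdkn1c*, 0.27 with *Plagl1* and 0.24 with *Meg3*. With *H19*, *Rian* and *Mirg* it was -0.38, -0.47 and -0.505. Of 6 Schwann cell markers, 3 were higher and 0 lower, and of 6 tendon markers 0 were higher and 4 lower. Of 6 fast fibre markers 0 were called higher and 3 lower by edgeR (6 lower by DESeq2), and their summed normalized count did not overlap between the muscles, at 1050646 to 2101151 in EDL and 220148 to 600498 in psoas. The log2 of the summed fast fibre count plus 1 had a Pearson r of 0.79 with the log2 CPM of *Rian*, 0.69 with *Mirg* and 0.67 with *H19*. With *Igf2* it was -0.52 and with *Dlk1* -0.28. Fibroblast markers were called in neither direction (0 of 8) and overlapped between the muscles, at 36444 to 105682 in EDL and 46873 to 128402 in psoas. The part of any of these cells or fibres in the values of the members was not tested.

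**Figure D5:**
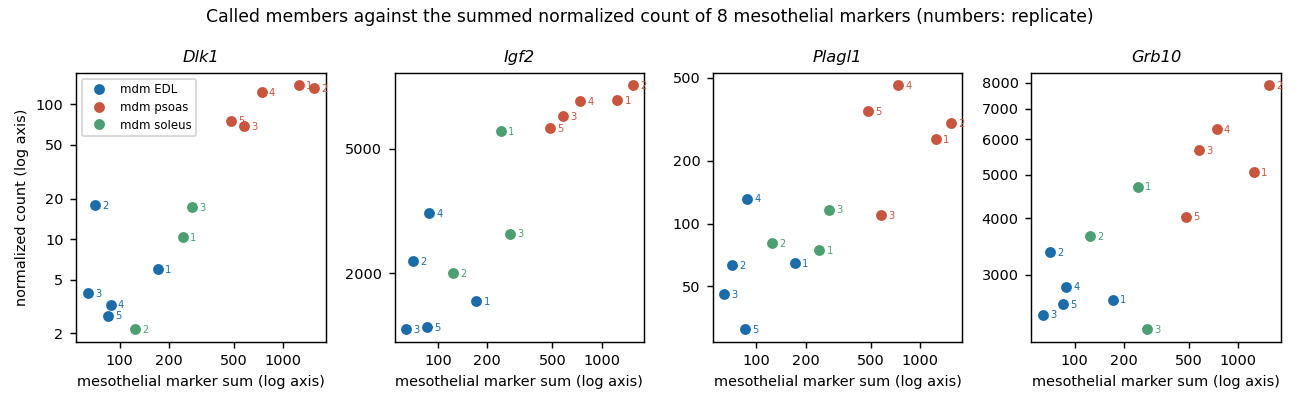
Normalized count (log axis) of the 4 members called in psoas against EDL, plotted against the summed normalized count of 8 mesothelial markers (log axis) in the 13 libraries, coloured by muscle and numbered by replicate. The psoas libraries lie at marker sums of 481 to 1547 and the EDL libraries at 64 to 171, so these muscles are separated on both axes for *Dlk1*, *Igf2* and *Grb10*.

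Genes with the pattern most like each member were listed by Pearson r of log2 CPM over the 13 libraries, with no test. For *Dlk1* these were *Upk3b* (0.94), *Upk1b* (0.94) and *Gatm* (0.92), the first pair being mesothelial markers. With the means of the muscles removed, those closest to *Dlk1* were *Arid3b* (0.88), *Gm16118* (0.86) and *Ercc2* (0.83), none of them on the mesothelial list. For *Igf2* they were *Mid1-ps1* (0.93), *Stmn1* (0.93) and *Agtr2* (0.92), and for *Plagl1* they were *Cdk6* (0.96), *Entpd7* (0.945) and *Nrk* (0.94). For *Meg3* they were *Gm27000* (0.96), *Rtl1* (0.96) and *Gm15462* (0.94), and once the means of the muscles were removed *Neat1* came first (0.97). *Rian* and *Mirg* had one another among their closest 3 (0.875). *Grb10* came closest to *Ccdc86* (0.94), *Bcl2l11* (0.93) and *Mymk* (0.92), *Peg3* to *Prrc2c* (0.95), *Dennd1a* (0.95) and *Zswim8* (0.95), and *Cdkn1c* to *Cd109* (0.92), *Fxyd3* (0.87) and *Fpgs* (0.86). For *H19* the closest were *Gm24300* (0.88), *Gm24017* (0.86) and *Gm23952* (0.85), all annotated as microRNA genes.

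Among the members themselves, *Igf2* had a Pearson r of 0.87 with *Grb10*, 0.865 with *Dlk1* and 0.84 with *Plagl1* over the 13 libraries, and of -0.15 with *H19*. With the means of the muscles removed, these values were 0.53, 0.41, 0.38 and 0.52. Values of a library share its depth, so these correlations are a description.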

How the data were processed

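RNA-seq of 13 *mdm* muscle libraries (stranded total RNA kit, paired-end reads) was analysed from the deposited values. The authors trimmed low-quality samples with Trimmomatic, aligned reads to GRCm38.p4 with TopHat and counted them per gene with GenomicAlignments, and deposited the raw counts as whole numbers, after removing marginally expressed genes over all *mdm* and wild-type samples. They also deposited a normalized signal, the count divided by 1 DESeq2 size factor per library, which was checked to within 5.2e-15. How overlapping genes and strands were handled in counting is not given in the sources used here, so overlapping and antisense genes are uncertain.

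Symbols and positions came from GENCODE M21 on GRCm38 (17833 of 17924 genes matched). Genes reaching a normalized count of 10 in 3 or more libraries entered edgeR 4.0.16 (R 4.3.3), with TMM scaling and 1 quasi-likelihood fit of all 13 libraries, with the muscle as the only factor. The study also fitted the sequencing run, which the labels do not name. Calls needed an adjusted p (Benjamini-Hochberg) under 0.01 with a log2 fold change beyond 1 in either direction. SE is the log2 fold change divided by the root of F. Log2 CPM used a prior count of 2. The labels do not state which libraries came from separate mice, so p-values measure the spread between these libraries.

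DESeq2 1.42.0, limma 3.58.1 (log2 of the normalized count plus 1), other scalings and filters, label code or replicate number as a block, and fits without each library were alternatives. The code was tested on simulated data. No 2 libraries of 1 muscle were duplicates, with a chi-square per degree of freedom of 53.09 or more in the 23 pairs. Libraries of different muscles were not compared in this way. Deviations of same-numbered EDL and psoas libraries correlated by 0.29 to 0.407 in 5 of 5 pairs. Libraries of different numbers were not compared, so these values do not show that same numbers mark 1 mouse. The numbers were tried as pairs, although the replicate 1 mice were 38 and 29 days old, with the highest correlation (0.407). Soleus numbers do not go with the ages of the same numbers elsewhere.

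All members are named, from each list at most the 3 called genes with the largest fold changes, and for likeness the 3 highest Pearson r. *Malat1* and *Neat1* were named after their values were seen. The members and lists were chosen with earlier results of these data known. RefSeq promoters of 8 of the 10 members were found.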

Additional observations from a re-analysis of the deposited data

Results flagged for a closer look

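In groups of 5 libraries, a highest or lowest value was marked where its gap to the nearest library, divided by the range of the group, exceeded Dixon's 95% critical value. Of 20 groups tested (10 members in EDL and in psoas), 5 were marked, where chance marks about 1 in 20. *Meg3* in EDL replicate 1 had a normalized count of 1248, while the other EDL libraries had 150 to 387. *Mirg* in the same library had 1249, while the others had 273 to 392. *Mirg* in psoas replicate 4 had 141.6, below 184 to 192 in the other psoas libraries. *Dlk1* in EDL replicate 2 had 17.86, above 2.71 to 5.96, and this is a value of 28 reads. *Cdkn1c* in psoas replicate 1 had 4680, above 1752 to 2454. Groups of 3 were not tested.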

How the results depend on the processing

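Of 690 refitted values of single members, 662 kept direction and side of the call rule, 14 lost the call, 9 gained it and 5 changed sign. Sizes moved more, by over 1.5 times with the same sign in 65. The 5 were *H19* in psoas against EDL with library totals alone (0.034), *Dlk1* in soleus against EDL with label code as a block (-0.033) and without soleus replicate 3 (-0.159, in a range of -0.159 to 1.106 without each library), and *H19* in soleus against psoas without soleus replicate 2 (0.122) and replicate 3 (0.016, in a range of -0.763 to 0.122). None of these was called. Most of the 690 values were of results not called in the reported fit, which had no call to lose. The 14 lost calls were all in psoas against EDL, by *Grb10* in 11 refits, *Plagl1* in 2 and *Igf2* in 1. Within label codes, which have no test, 5 of 70 values had the other sign than the fit. They were *Dlk1* (-1.589 in T4), *Meg3* (0.694 in T6), *Cdkn1c* (0.149 in T4) and *Grb10* (-0.236 in T6) in soleus against EDL and *Mirg* (0.171 in T6) in soleus against psoas. Library totals alone moved the median of all genes by 0.518, 0.365 and -0.151 in the 3 comparisons.

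Members called higher in psoas against EDL numbered 4, and 2 to 4 without each library in turn, 2 without EDL replicate 3 and 1 without both number 1 libraries, an alternative chosen after seeing the data. Members called lower in soleus against EDL numbered 0, and 2 with DESeq2, 1 with limma, 1 with the replicate block and 1 at an adjusted p under 0.05 without a fold limit. In soleus against psoas they numbered 0, and 1 with DESeq2 and 1 at an adjusted p under 0.05.

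All genes called in psoas against EDL numbered 841 (49.3% higher), and 1586 with DESeq2, 2282 with library totals alone (92.9% higher), 557 with only the 2 muscles, 1267 with the replicate block, 343 without both number 1 libraries and 3093 at an adjusted p under 0.05. Without each library they ran from 317 to 802, with 317 without EDL replicate 3, 426 without EDL replicate 5, 447 without psoas replicate 1 and 365 without psoas replicate 2. In soleus against EDL they numbered 167, and 633 with DESeq2, 86 with label code, 305 with library totals alone (77.7% higher), 585 at an adjusted p under 0.05, and 19 to 182 without each library, lowest without soleus replicate 1. In soleus against psoas they numbered 13, and 171 with DESeq2, 20 with limma, 8 with only the 2 muscles, 6 with label code, 7 without both number 1 libraries, 108 at an adjusted p under 0.05, and 3 to 21 without each library. The replicate block changed no other call of a member than those of *Peg3* in psoas against EDL and *Rian* in soleus against EDL. For soleus, as for EDL and psoas, the numbers are not known to mark pairs. The cause of these changes was not tested. Precision is limited by the 3 soleus libraries, by the few *Dlk1* reads in EDL and by single EDL and psoas libraries.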
